A study of Mus musculus with 1 sample.

Results

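Neurotransmitter receptor genes were examined in 1 RNA-seq library of primary mixed glia. The members were the genes whose symbol starts with the name of a receptor family for glutamate (Gria, Grin, Grik, Grm), GABA (Gabra, Gabrb, Gabrg, Gabbr), glycine (Glra), acetylcholine (Chrna, Chrnb, Chrm), serotonin (Htr), noradrenaline and adrenaline (Adra, Adrb) or dopamine (Drd), followed by a digit. The rule used names and no measured value. It selected 89 of 23282 genes, of which 25 belonged to glutamate, 18 to acetylcholine, 14 to GABA, 14 to serotonin, 9 to noradrenaline, 5 to dopamine and 4 to glycine. The glutamate group included Grin1os, an antisense RNA of the Grin1 locus that encodes no receptor.

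The glia were cultured from the ventral midbrain (VM) of outbred ICR(CD-1) mouse pups at postnatal day 5, in serum-containing medium. That age is from the sample labels, while the study's methods give a range of postnatal days that ends at it. The study asked how inhibition of the serum- and glucocorticoid-related kinase SGK1 changes such glia, and the library analyzed here was its control, which the column header names as DMSO, the vehicle. Inhibitor-treated glia were not analyzed here, so there was no comparison between conditions, no replicate and no error between cultures. Whether pups were pooled, and whether the control received the toxins named in the labels' treatment text, was not stated. The values were the authors' normalized read counts per gene, which summed to 27569507, and the depth in sequenced reads is unknown. A gene was taken as detected at a value of 10 or more. In a mixed culture, fewer cells of a type and less RNA per cell cannot be told apart.

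Transmitter receptors are of a pair of kinds. Ionotropic receptors are channels assembled from several subunits, each from its own gene, that open when the transmitter binds. Metabotropic receptors are single or dimeric G protein-coupled receptors that act through second messengers. Astrocytes are best known for glutamate receptors of the metabotropic type and for adrenergic receptors, microglia for adrenergic receptors among others, and precursors of oligodendrocytes for AMPA-type glutamate receptors.

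The cell makeup was checked with marker genes. All 8 microglia markers were detected (median 17136.5), as were all 8 astrocyte markers (median 3357.5), all 6 mesenchymal markers (median 5816.5) and all 8 markers of the oligodendrocyte lineage (median 810.5). Neuron markers were lower. Against 67.2% of all genes, 6 of these 10 markers (60%) were detected, with a median of 16.5. Among them, the microtubule gene Map2 was at 868, Gad2 at 173 and Tubb3 at 124, while the glutamate transporter gene Slc17a6 was listed at 0 and Th, which marks dopamine neurons, was at 3. The 5 endothelial markers had a median of 33, with Kdr highest at 119 and Tek listed at 0. Among glial markers, the microglial C1qa was at 32619 and Csf1r at 31413. The astrocyte genes Gfap, Aldoc and Aqp4 were at 17222, 5805 and 5049, and the myelin gene Mbp was at 10966. The lowest microglia and astrocyte markers were Tmem119 at 984 and S100b at 604. Of the 8 oligodendrocyte lineage markers, 4 exceeded 469, the median of detected genes. Sox10 was lowest at 48, with Mog at 135, Pdgfra at 188 and Olig2 at 262. The part of each cell type in the receptor values was not tested.

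Of the 89 receptor genes, 42 (47.2%) were detected, against 67.2% of all 23282 genes at the same minimum. A value of 100 or more was reached by 14 receptor genes, while 51.6% of all genes reached it. Another 28 lay between 10 and 99, 26 between 1 and 9, and 21 were listed at 0. The share at 0 was 23.6% for the receptor genes and 21.8% for all genes. The median was 6 over the receptor genes and 119 over all genes. Among detected genes the medians were 54.5 and 469. Receptor genes as a set were thus low beside the rest of the table, but the share listed at exactly 0 was similar.

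The summed value of the 89 genes was 13445, or 488 per 1000000 of the sum of all genes. A few genes carried it. The 3 highest genes together held 60.3% of this sum, the 14 genes at 100 or more held 91.1%, and the 47 genes under 10 held 0.729%. Only 7 receptor genes exceeded the median of detected genes.

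**Figure D1:**
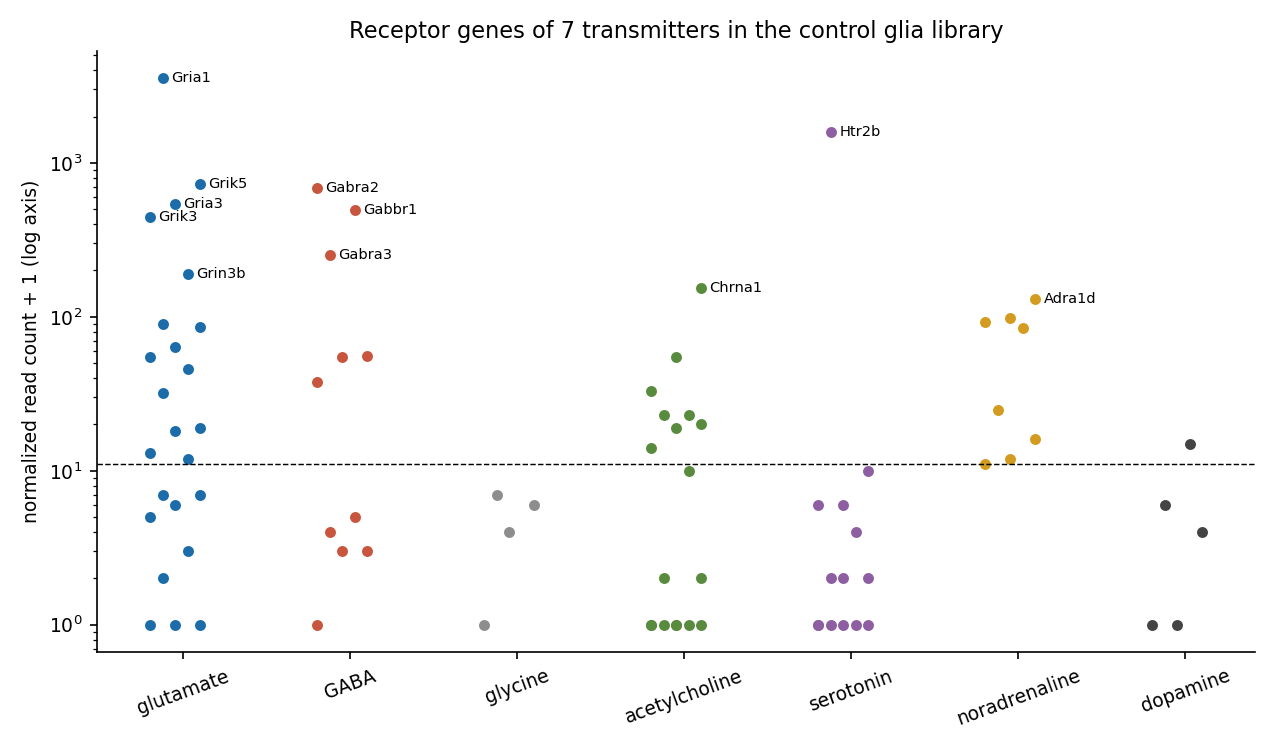
Normalized read count plus 1 (log axis) of 84 receptor genes in the control library, 1 point a gene, grouped by transmitter. The dashed line marks the detection minimum of 10 and names mark the 11 of these genes at 100 or more. Gria1 at 3553 and Htr2b at 1592 lie above the other genes plotted.

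Glutamate receptor genes held 65.9% of the summed value, GABA 14.5%, serotonin 12.03%, noradrenaline 4.74%, acetylcholine 2.56%, dopamine 0.164% and glycine 0.104%. Long transcripts gather more reads, so the sum was also taken over values per kilobase of annotated exon. On that scale glutamate held 48.8%, serotonin 27.8%, GABA 10.8% and noradrenaline 8.67%. The order of serotonin and GABA thus changed with the scale. The serotonin share rested on 1 gene, Htr2b, which held 98.5% of its transmitter's value. Without the highest gene of each transmitter, serotonin held 0.344%.

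**Figure D2:**
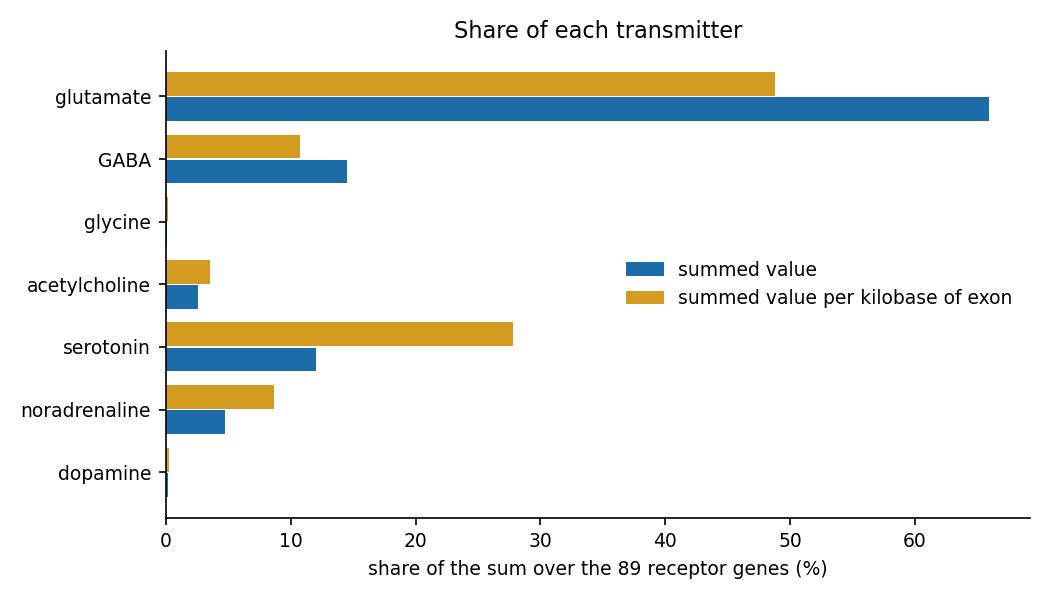
Share (%) of each transmitter in the sum over the 89 receptor genes, for summed normalized read counts and for counts per kilobase of exon. Glutamate was highest on both scales (65.9% and 48.8%), and serotonin moved from 12.03% to 27.8%.

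By kind of receptor, 24 of 47 ionotropic genes (51.1%, median 13) and 18 of 41 metabotropic genes (43.9%, median 5) were detected. Of all genes, 67.2% were detected. Ionotropic genes held 56.5% of the summed value and metabotropic genes 43.5%. After division by exon length the order turned, with 45.7% for ionotropic and 54.3% for metabotropic genes. This turn rested on 1 gene, Htr2b. It gave 747 of the 1476 summed per kilobase over metabotropic genes, against 1245 over ionotropic genes. The Htr2b value is limited by exon overlap, as described below.

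The sequences before the starts of 3 receptor genes are given because these genes differed widely in level and in base composition. A promoter window (250 bases before to 50 after the annotated start, RefSeq, build GRCm38.p6) was found for 65 of the 89 genes, 29 of them detected. Gria1 was not among them. The 250 bases before the start are printed 5′ to 3′ on the strand of the gene. In the Gria2 sequence (chr3:80802836-80803085, minus strand), capitals mark a match to the core of the RE1 element, the site of the repressor REST, which is known for silencing neuronal genes outside neurons. In the sequences of Htr2b (chr1:86111981-86112230, minus strand) and Grik3 (chr4:125490446-125490695, plus strand), capitals mark CG dinucleotides.
Gria2: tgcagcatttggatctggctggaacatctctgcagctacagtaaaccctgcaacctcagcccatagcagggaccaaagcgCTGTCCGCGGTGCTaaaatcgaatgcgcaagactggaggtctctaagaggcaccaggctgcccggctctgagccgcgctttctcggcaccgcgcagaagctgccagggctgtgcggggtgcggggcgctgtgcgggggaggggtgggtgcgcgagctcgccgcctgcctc
Htr2b: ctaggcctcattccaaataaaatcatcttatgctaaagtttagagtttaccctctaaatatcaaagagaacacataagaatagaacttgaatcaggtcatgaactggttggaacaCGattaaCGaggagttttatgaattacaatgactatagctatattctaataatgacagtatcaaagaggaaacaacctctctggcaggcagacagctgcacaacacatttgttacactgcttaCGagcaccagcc
Grik3: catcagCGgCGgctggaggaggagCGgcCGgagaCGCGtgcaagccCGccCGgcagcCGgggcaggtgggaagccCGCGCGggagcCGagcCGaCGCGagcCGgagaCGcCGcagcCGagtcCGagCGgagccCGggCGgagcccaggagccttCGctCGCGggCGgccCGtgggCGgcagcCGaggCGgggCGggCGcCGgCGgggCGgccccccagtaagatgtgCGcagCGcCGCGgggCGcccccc

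The 250 bases of Htr2b held 3 CG dinucleotides, those of Gria2 19 and those of Grik3 42. Their values were 1592, 89 and 443. Because these 3 genes were chosen for such differences, no relation between CG content and level is read from them. Across windows, detected receptor genes had a median of 17 CG dinucleotides (range 0 to 50, n = 29) and those under 10 a median of 12.75 (range 1 to 46, n = 36). For all other genes the medians were 19 when detected (n = 11579) and 3 under the minimum (n = 5561). Undetected receptor genes thus had more CG-dense windows than other undetected genes did by the median.

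**Figure D3:**
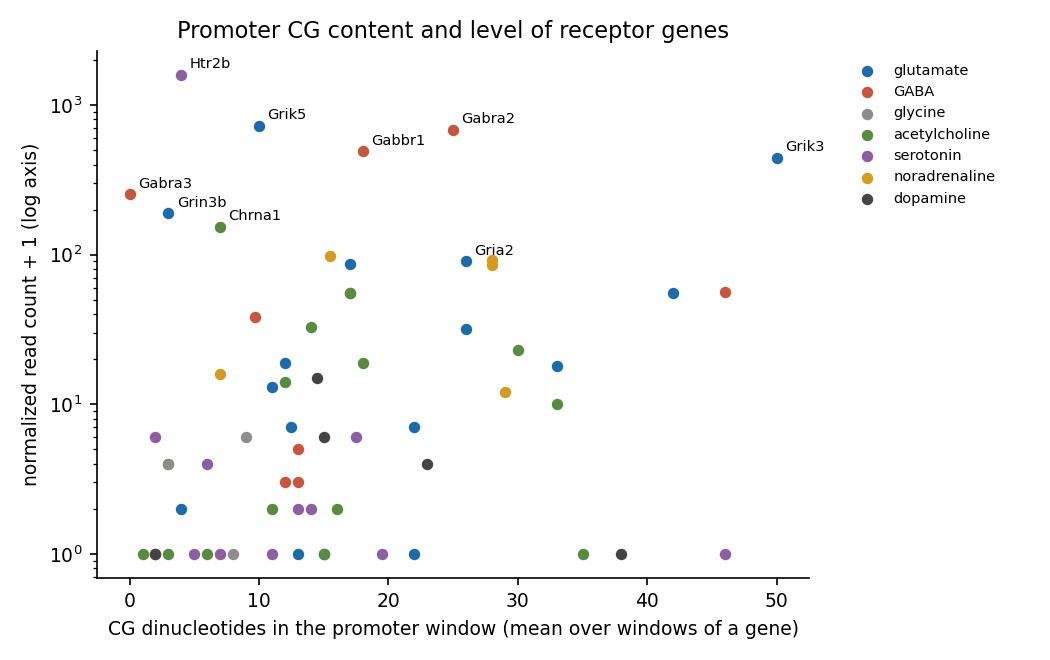
Number of CG dinucleotides in the promoter window (mean where a gene has several) against the normalized read count plus 1 (log axis), 1 point for each of 65 receptor genes, colored by transmitter. Htr2b is high with few CG dinucleotides, and several genes with CG-dense windows lie at 0.

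The RE1 core was searched as AGCACC and GGACAG with 2 bases between them, on both strands. It was present in 17 of 32851 windows (0.0517%), and in 1 of the 77 windows of receptor genes (1.30%), that of Gria2. There it lay on the opposite strand, 170 to 157 bases before the start. Taken singly, AGCACC was in 16.2% of all windows and GGACAG in 22.2%. Rest, the gene of the repressor, was at 847, chosen after its value was seen. A match in letters does not show that the site was bound.

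AMPA receptors are the fast glutamate-gated channels, and their subunits GluA1 to GluA4 come from Gria1 to Gria4. All 4 were detected, against 67.2% of all genes, but at very different levels. Gria1 (chromosome 11, 57011387 to 57330244 in GRCm38) led the receptor genes with a value of 3553 and exceeded 91.1% of detected genes. Gria3 was at 541, Gria2 at 89 and Gria4 at 85. GluA2, the Gria2 product, is the subunit that keeps calcium out of the channel once its transcript has been edited.

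Per kilobase of exon, Gria1 was at 588, Gria3 at 54.9, Gria4 at 13.5 and Gria2 at 5.72. The level of Gria1 per kilobase was 103 times that of Gria2, but the ratio was 38.9 per kilobase of coding sequence and 39.9 with no division. The annotated exons of Gria2 span 15.548 kb. Gria1 exceeded Gria2 on each of these scales. Among the genes of the RNA editing enzymes, chosen after their values were seen, Adarb1, which edits the GluA2 site, was at 736 and Adar at 1195.

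NMDA receptors are glutamate-gated channels that need the GluN1 subunit, encoded by Grin1. Grin1 was at 17, and the antisense Grin1os was listed at 0. The GluN2 genes were also low, with Grin2b at 45, Grin2d at 18, Grin2c at 6 and Grin2a at 5. The highest gene of the family was Grin3b at 188, followed by Grin3a at 63, and their products bind glycine in place of glutamate. The order within this family is uncertain for Grin3b, because 1059 of its 3296 exonic bases (32.1%) lie over exons of Tmem259 on the opposite strand. Tmem259 was at 3829, and the strand setting of the authors' counting was not stated. Its part in the Grin3b value was not tested.

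Kainate receptors are built from the subunits of Grik1 to Grik3, with which the products of Grik4 and Grik5 combine. Grik5 was at 728, or 141 per kilobase, and was the highest of the family. Grik3 was at 443, or 49.4 per kilobase. Grik4 was at 54, Grik2 at 31 and Grik1 at 2. Of the subunits able to form channels by themselves, Grik3 thus had the highest value.

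Metabotropic glutamate receptors fall into a group coupled to phospholipase C, with Grm5, and groups that lower cyclic AMP (Grm2 and Grm3, and Grm4, Grm6, Grm7 and Grm8). Grm3 and Grm5, the members of the family best known from astrocytes, were at 12 and 11. Grm7 was at 6, Grm4 at 4 and Grm6 at 1, and Grm2 and Grm8 were listed at 0.

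GABA-A receptors are chloride channels that are usually assembled from alpha, beta and gamma subunits. Among alpha genes, Gabra2 was at 684 and Gabra3 at 252, while Gabra4 and Gabra5 were at 2 and Gabra6 was listed at 0. Among beta genes, Gabrb1 was at 54 and Gabrb2 at 37. Among gamma genes, Gabrg3 was at 4 and Gabrg1 at 3, both under the detection minimum.

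Per kilobase of exon, Gabra2 was at 89.5 and Gabra3 at 64.2. Other subunits can take the gamma position, and their genes were read from a list outside the rule. Gabre was at 40, Gabrp at 4 and Gabrq at 2, and Gabrd was listed at 0. Gabrr1, Gabrr2 and Gabrr3, whose products form GABA channels of their own, were also listed at 0.

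The GABA-B receptor couples to Gi and works as a dimer of the products of Gabbr1 and Gabbr2. Gabbr1 was at 492 and Gabbr2 at 55, both above the detection minimum. The level of Gabbr1 per kilobase of exon (63.4) was 7.70 times that of Gabbr2 (8.23). Kctd12, which encodes an auxiliary subunit of this receptor, was at 2795. Exons of Kctd12 overlap an annotated gene on the opposite strand.

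**Figure D4:**
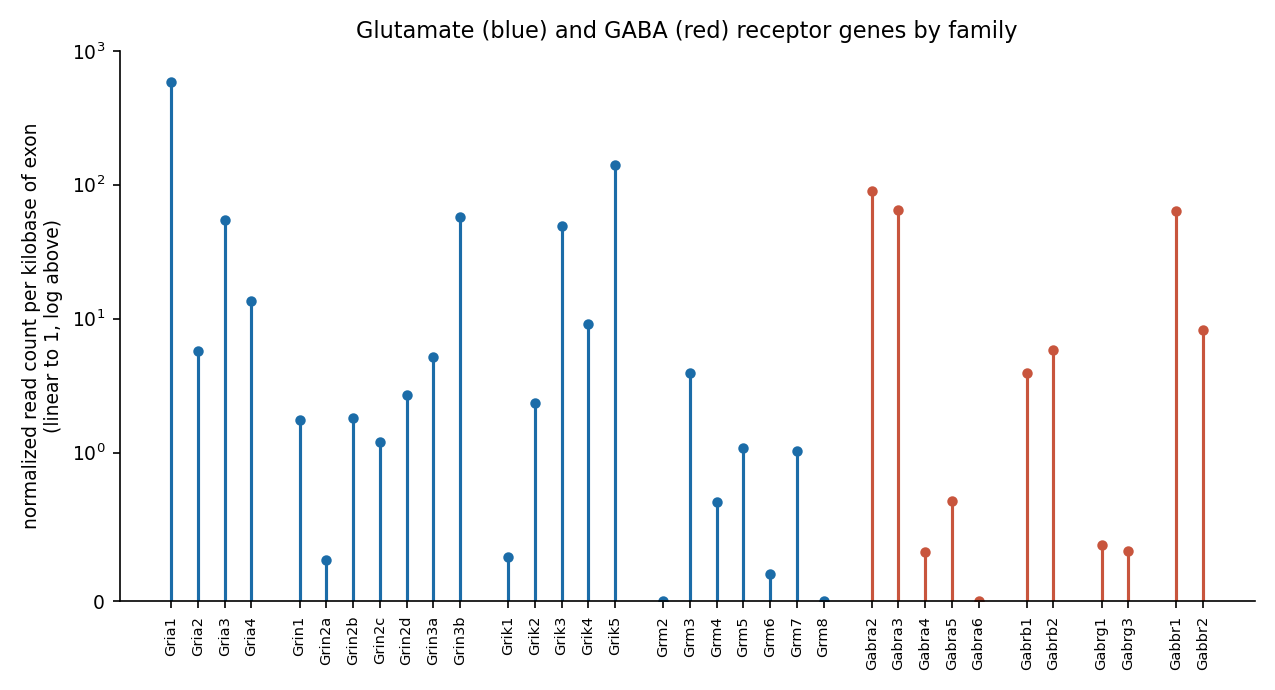
Normalized read count per kilobase of exon (linear up to 1, log above) of glutamate receptor genes (blue) and GABA receptor genes (red), ordered by family, 1 line a gene. Gria1 at 588 stands above the other Gria genes, and Gabrg1 and Gabrg3 stay under 1.

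Glycine receptors are chloride channels of alpha subunits, from the Glra genes, and a beta subunit from Glrb. None of the 4 Glra genes was detected, against 67.2% of all genes. Glra1 was at 6, Glra2 at 5, Glra4 at 3 and Glra3 at 0. Glrb, which the rule leaves out, was at 81.

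Of the 14 serotonin receptor genes, 1 (7.14%) was detected, against 67.2% of all genes. Htr2b, which encodes a Gq-coupled receptor, was at 1592, and the other 13 were under 10. It was above 78.7% of detected genes, and per kilobase of exon (747) it was the highest of the 89 genes. Htr3a, which encodes the channel-forming serotonin receptor, followed at 9. Htr1d and Htr3b were at 5, Htr2a at 3, and Htr1f, Htr5a and Htr5b at 1. Htr1a, Htr1b, Htr2c, Htr4, Htr6 and Htr7 were listed at 0.

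The position of Htr2b limits this value. The gene (chromosome 1, 86099026 to 86111970, minus strand) lies entirely inside Psmd1, a proteasome subunit gene on the plus strand. An exon of Psmd1 covers 252 of the 2131 exonic bases of Htr2b (11.8%). Psmd1 was at 16566, above 98.8% of detected genes, or 2280 per kilobase. Without strand information, reads of these genes over shared bases cannot be told apart, and the part of Psmd1 in the Htr2b value was not tested. Htr2b was the 1 detected serotonin receptor gene, so no detected gene of this transmitter was free of exon overlap.

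Adrenergic receptors were the 1 transmitter group in which each gene was detected, 9 of 9, against 67.2% of all genes. In smaller families of other transmitters, such as Gria and Gabbr, each gene was detected too. The count depends on the minimum, because Adrb3 lay exactly at 10 and Adra2b at 11. Their median was 84. Among beta receptor genes, whose products raise cyclic AMP, Adrb1 was at 91 and Adrb3 at 10. Among alpha-1 genes, whose products couple to Gq, Adra1d was at 130, Adra1b at 97 and Adra1a at 24. Among alpha-2 genes, whose products lower cyclic AMP, Adra2a was at 84, Adra2c at 15 and Adra2b at 11. No single gene carried this group, and the highest held 27.5% of its value.

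Per kilobase of exon, Adra1d was at 68.5, which placed it behind Htr2b, Gria1, Grik5 and Gabra2. Per kilobase of coding sequence it was not among the 10 highest receptor genes. A total of 147 exonic bases of Adra1d overlap an annotated noncoding gene on the opposite strand, as do 839 of Adrb3.

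Acetylcholine acts on nicotinic channels (Chrna, Chrnb) and on muscarinic receptors (Chrm). Chrna1 was the highest at 153, and Chrnb1 followed at 54. Their products form the nicotinic receptor of muscle, together with those of Chrnd, at 24, and of Chrng and Chrne, both listed at 0. Of 8 skeletal muscle genes, Chrng among them, chosen after the values were seen, 4 (50%) were detected. Of all genes, 67.2% were detected. Acta1 was at 198, Ttn at 42 (0.36 per kilobase of exon), and Des and Myh3 at 10. Myod1 was at 5 and Ckm at 1, and Myog was listed at 0. The part of muscle-like cells in these values was not tested.

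The neuronal nicotinic genes were lower. Chrnb4 was at 32, Chrna2 at 22, Chrna3 at 18, Chrnb2 at 13 and Chrna4 at 9. Exons of Chrnb2 overlap those of Adar on the opposite strand. Chrna7, known for the cholinergic control of inflammation in macrophages, was listed at 0, as were Chrna5, Chrna6, Chrna9, Chrna10 and Chrnb3. Among muscarinic genes, Chrm4 was at 22, Chrm1 at 19, Chrm2 and Chrm3 at 1, and Chrm5 at 0. Of the 18 acetylcholine receptor genes, 8 (44.4%) were detected, against 67.2% of all genes, and 7 were listed at 0.

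Dopamine is the transmitter of the midbrain neurons that are lost in Parkinson disease. Of its 5 receptor genes, Drd1, whose product raises cyclic AMP, was detected at 14. Drd4 was at 5 and Drd2 at 3, and Drd3 and Drd5 were listed at 0. Dopamine receptor genes together summed to 22, the lowest sum after that of glycine.

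Genes whose products work with the receptors were read from lists. Of 31 auxiliary subunits, scaffolds and chaperones, 30 had a value, and 26 of these (86.7%) were detected, against 67.2% of all genes. The median of this list was 227.5. Of the listed genes for auxiliary subunits of AMPA receptors, Cacng7 was highest at 297, followed by Cnih2 at 190. The others were lower, among them Shisa9 at 76, Cnih3 at 52 and Cacng2 at 9. Neto2, a partner of kainate receptors, was at 273, while Neto1 was listed at 0. The scaffold genes Dlg1 and Dlg4 were at 1644 and 1138. Homer3, whose product binds the phospholipase C-coupled glutamate receptors, was at 2019. Exons of Homer3 overlap those of Ddx49 on the opposite strand. At inhibitory synapses, Gphn, which encodes the scaffold gephyrin, was at 455 and Nlgn2 at 1073. Cacng3 and Kctd16 were listed at 0. Gabarap was the highest of this list at 6765, and it serves autophagy as well as receptor traffic. It was followed by Grina, named after an NMDA receptor-associated protein, at 6231, and Kctd12.

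All 32 genes of G protein subunits, receptor kinases, arrestins, adenylyl cyclases and the like were detected, against 67.2% of all genes. Their median was 454. The highest were Gnas, which encodes the stimulatory alpha subunit, at 65906, Gnai2 at 39839, and the receptor kinase gene Adrbk1 at 6203. Exons of Gnas overlap opposite-strand genes. The phospholipase gene Plcb3 was at 2942 and Gnaq at 1788. The lowest members were Gna14 at 11 and Adcy4 at 12. The letter-named receptor subunits left out by the rule were detected in 4 of 13 cases (30.8%), with a median of 2. The delta glutamate receptor gene Grid1 was at 45.

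**Figure D5:**
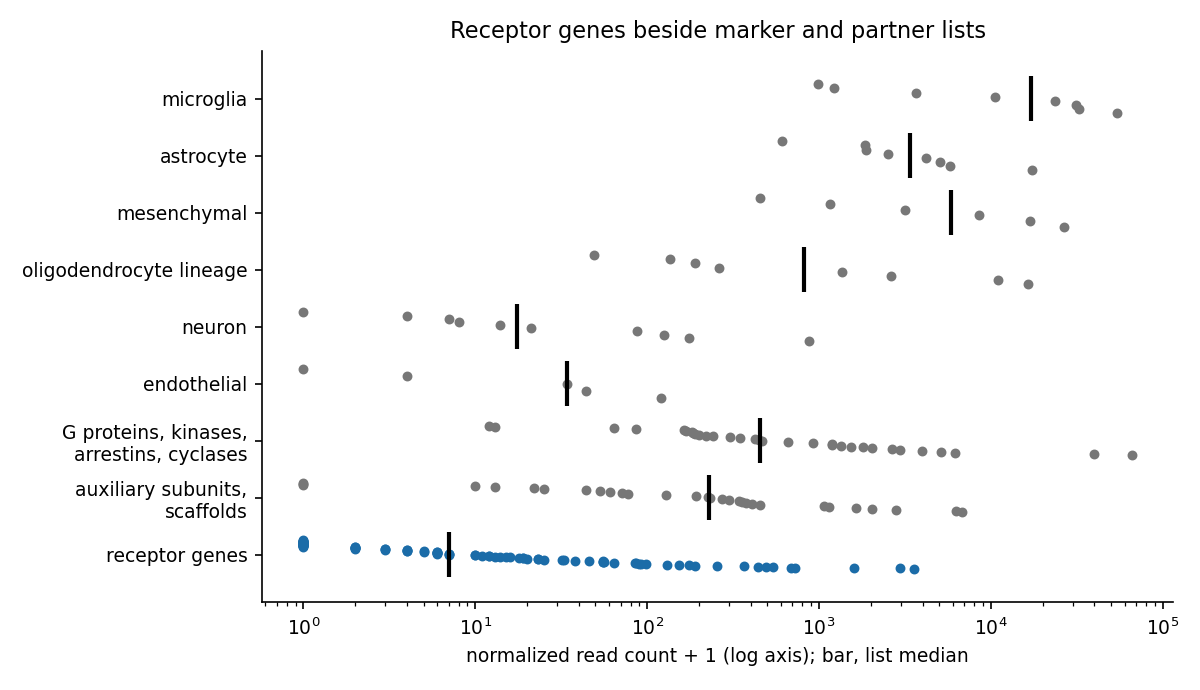
Normalized read count plus 1 (log axis) of the genes in cell type marker lists, of 2 lists of receptor partners and of the 89 receptor genes, 1 point a gene, with a bar at each list's median. The receptor genes have a median of 6, against 454 for the G protein list and 227.5 for the auxiliary list.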

How the data were processed

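RNA-seq was analyzed in 1 control library of VM-glia. The study's methods state quality trimming, STAR on GRCm38/mm10 and HTSeq-count on RefSeq genes, whereas the submitters' processing notes name TopHat and edgeR, and versions, strand and multi-mapping were not stated. The deposited values are whole numbers that the authors call normalized read counts, and they were handled as a score, without confidence intervals. With 1 library no test was run. Detection was set at 10, with 1, 3 and 100 as alternatives, along with other lengths, totals and subsets. Exon lengths (union of exons), coordinates and overlaps came from GENCODE M21 (GRCm38), to which 98.4% of rows matched by symbol or synonym. Functions for exon length, ranks and the naming rule were tested on simulated data. Members and lists were chosen with earlier results of these data known. Members at 100 or more, the 3 highest per kilobase of each transmitter and those at 0 were to be named, and the rest were added, but some members and list genes are not reported here. Scripts were run in Python (3.11.15) with the numpy (2.4.6), pandas (2.3.3) and matplotlib (3.10.9) libraries.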

Additional observations from a re-analysis of the deposited data

How the results depend on the processing

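With 1 library, no replicate could be left out and no spread between cultures could be given. No paired analysis was possible because there was 1 sample and no test. Of 163 alternative values, 106 stayed within 1.5 times the reported value and 57 moved further. Of the 106, 28 were values per 1000000 of another sum. Another sum changes every gene by the same factor, so these 28 are not separate checks. With a detection minimum of 1, 68 receptor genes were detected, 38 of them ionotropic and 30 metabotropic. The genes left out were those at 0, 23.6% of receptor genes and 21.8% of all genes, so the shares detected were similar. Among the transmitters that moved, the counts were 12 for GABA, 3 for glycine, 8 for serotonin and 3 for dopamine. With a minimum of 3, the counts that moved were 3 for glycine, 5 for serotonin and 3 for dopamine. The share of all genes at that minimum was not taken. With a minimum of 100, 14 receptor genes were left, 9 ionotropic and 5 metabotropic, while 51.6% of all genes reached it. They were 6 for glutamate, 4 for GABA, 1 for acetylcholine, 2 for noradrenaline and 0 for dopamine. Exon overlap was annotated for 28 receptor genes, 14 of them detected. Leaving them out makes each set smaller, so the lower counts do not show lower shares detected. Among genes without exon overlap, 8 were detected for glutamate, 0 for serotonin and 14 for ionotropic receptors. Adding letter-named subunits gave 1 for glycine. Per kilobase of exon, the share of the sum was 0.205% for glycine, 27.8% for serotonin and 8.67% for noradrenaline, and without each transmitter's highest gene that of serotonin was 0.344%. Over detected genes alone the median was 54.5 for all, 74 for glutamate, 252 for GABA, 22 for acetylcholine, 1592 for serotonin and 14 for dopamine, and glycine gave no value. Ratios between genes on other lengths, and the highest gene's share per kilobase, were chosen after seeing the data. Coding length came from the longest annotated coding sequence. The depth in reads is unknown, so low values carry no counting error here.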

Other observations

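Genes for making and clearing the transmitters were read from a list that the text above does not describe. For glutamate, D-serine and glycine, 6 of 8 genes (75%) were detected, against 67.2% of all genes. Glul, which encodes glutamine synthetase of astrocytes, was at 6714, Phgdh, which starts serine synthesis, was at 2679, Shmt2, which makes glycine, was at 1285, and Srr, which makes D-serine, was at 1191. The glycine transporter gene Slc6a9 was at 101, and Dao and Slc6a5 were listed at 0. Exons of Srr, Glul, Shmt2 and Slc6a9 overlap opposite-strand genes. For GABA, all 6 genes were detected, with the breakdown enzyme gene Abat highest at 615, the synthesis genes Gad2 at 173 and Gad1 at 13, and the transporter genes Slc6a11 at 19 and Slc6a13 at 10.

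For the monoamines, 7 of 15 genes (46.7%) were detected, against 67.2% of all genes. The breakdown enzyme gene Maoa was at 2279. Maob was at 69 and the histamine-methylating Hnmt at 142. The synthesis genes were low, with Ddc at 8, Tph1 at 7 and Th at 3, and Dbh, Pnmt and Tph2 were listed at 0. Among transporter genes, Slc6a2 was at 45, Slc18a2 and Slc22a3 at 16, and Slc6a3 at 7, and Slc6a4 was listed at 0. For acetylcholine, Chat was at 290, while Slc18a3, which lies in the same locus and loads vesicles, was at 1. Bche was at 57 and Ache at 14, and Slc5a7 was listed at 0.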
